A study of Mus musculus with 6 samples.

Results

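Nascent transcription of 45 genes of the sarcomere and its thin filament was examined in proliferating muscle stem cells (MuSCs) with and without the histone methyltransferase Kmt5b. The genes were listed by name for their protein products, which are myosin heavy and light chains, troponins, tropomyosins, actins, titin, nebulin and proteins of the M band and the Z disc. The list was drawn up with earlier results of these data known. Of the 45 genes, 43 were found among the 14546 genes with values, and 40 of these were among the 12451 genes that passed a filter on low values and were tested. Myl3 and Mybpc2 were not analysed here. Myh2, Myh4 and Myl2 had a mean below 0.5 in the region after the listed transcription start and are described by their levels alone.

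The cells were mouse satellite cells in culture, and precision run-on sequencing (PRO-seq) was done with nuclei of 3 Ctrl and 3 Kmt5b sKO samples. PRO-seq lets RNA polymerases that are engaged on the DNA add biotin-labelled nucleotides to their RNA, so that its reads mark transcription in progress and not the amount of mRNA. Ctrl cells had the genotype Pax7CreERT/Suv4-20h1WT and Kmt5b sKO cells the genotype Pax7CreERT/Suv4-20h1KO, where Suv4-20h1 is another name of Kmt5b, and no compound treatment is given for the libraries. All 6 samples thus carried the Pax7CreERT allele, which makes a tamoxifen-dependent Cre recombinase from the Pax7 locus. Deletion is limited by this allele to cells that expressed Pax7 when tamoxifen was given, and cells of other types in a culture would keep the gene. The study's methods describe tamoxifen treatment of C57BL/6 mice of 8 to 12 weeks, and purification of the cells from limb and trunk muscle with magnetic beads. The methods give 3 samples per genotype, and p-values measure the spread between these samples.

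Each gene had 2 values per library, both counted on the strand of the gene. The TSS region, the first 400 nt after the listed start, was given as reads scaled to a fixed library total (RPM), and the gene body, the rest of the transcript, as TPM, which are corrected for length as well. Recovered from the steps between low values, 926904 to 3246023 reads per library lay behind the TSS values and 7425433 to 16249797 behind the gene body values. The targeted gene did not check the labels, since Kmt5b had 30.6, 35.4 and 38.5 TPM across Ctrl libraries against 37.8, 35.0 and 42.6 TPM with Kmt5b sKO, and the deleted part of the gene was not resolved. Both units are shares of a fixed total, so each change below is relative to the sum over all genes. When the reads were instead divided by the uniquely mapped reads of each library, the median of all tested genes moved to −1.06 in the gene body and −1.05 in the TSS region on the log2 scale, and the median of the 40 sarcomere genes to −0.33 and −0.32. On that scale 34 of the 40 genes were below 0 in the gene body and 28 in the TSS region. The study does not state whether these mapped totals are comparable with the deduplicated reads behind the values. Whether transcription shifted globally was therefore not tested, and all directions below are those relative to the other genes.

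A sarcomere is the repeated unit of striated muscle that shortens when the heads of thick myosin filaments pull on thin actin filaments. Calcium binds to troponin on the thin filament, tropomyosin shifts, and the myosin binding sites of actin become free. Thin filaments are anchored in the Z disc and thick filaments are held together in the M band, with titin spanning the distance between both. Many parts exist as developmental, fast and slow forms made from separate genes, and MuSCs are known to switch these genes on when they leave the cell cycle and fuse into myotubes.

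The promoters shown here belong to the genes that rose in the gene body or the TSS region and for which the RefSeq promoter table (GRCm38.p6) held an entry within 100 nt of the listed start. They are shown because these genes rose together, and each sequence ends before the transcript, reads 5′ to 3′ in the direction of the gene and has its E boxes in capitals. An E box is the sequence CANNTG, which basic helix-loop-helix factors such as MyoD and myogenin bind.
Tnnc1, chr14:31208062-31208311, plus strand: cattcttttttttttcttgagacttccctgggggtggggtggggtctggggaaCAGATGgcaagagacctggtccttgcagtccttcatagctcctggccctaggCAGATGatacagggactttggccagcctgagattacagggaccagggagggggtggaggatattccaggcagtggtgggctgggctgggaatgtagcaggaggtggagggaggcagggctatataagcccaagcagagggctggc
Tnnc2, chr2:164779742-164779984, minus strand: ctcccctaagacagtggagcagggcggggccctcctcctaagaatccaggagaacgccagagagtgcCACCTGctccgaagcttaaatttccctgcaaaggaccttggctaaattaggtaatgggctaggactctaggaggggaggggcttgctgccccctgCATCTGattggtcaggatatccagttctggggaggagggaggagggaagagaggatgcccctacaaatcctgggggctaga
Myom1, chr17:71019307-71019556, plus strand: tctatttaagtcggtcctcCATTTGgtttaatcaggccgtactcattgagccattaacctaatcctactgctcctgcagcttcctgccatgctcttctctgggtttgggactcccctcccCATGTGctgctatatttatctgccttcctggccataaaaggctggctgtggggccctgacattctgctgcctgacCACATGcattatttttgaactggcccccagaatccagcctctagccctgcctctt
Myoz2, chr3:123035016-123035237, minus strand: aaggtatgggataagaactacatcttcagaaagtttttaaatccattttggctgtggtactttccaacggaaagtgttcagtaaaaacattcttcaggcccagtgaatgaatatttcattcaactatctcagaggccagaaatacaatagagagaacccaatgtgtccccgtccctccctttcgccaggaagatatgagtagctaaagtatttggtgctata
Ldb3, chr14:34588682-34588931, minus strand: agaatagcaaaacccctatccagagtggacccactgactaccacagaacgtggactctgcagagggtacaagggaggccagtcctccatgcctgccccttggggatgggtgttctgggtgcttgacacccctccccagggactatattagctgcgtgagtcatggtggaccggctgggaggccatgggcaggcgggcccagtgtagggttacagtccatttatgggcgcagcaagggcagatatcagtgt
Xirp2, chr2:67445752-67446001, plus strand: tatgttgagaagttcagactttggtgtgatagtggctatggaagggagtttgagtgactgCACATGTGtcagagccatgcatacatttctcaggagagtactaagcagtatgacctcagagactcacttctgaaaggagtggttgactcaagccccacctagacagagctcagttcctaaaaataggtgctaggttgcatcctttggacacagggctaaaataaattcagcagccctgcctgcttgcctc
The stretches before Tnnc1 and Tnnc2 each held 2 E boxes, that before Myom1 held 3, and that before Xirp2 held 2 that overlap each other. No CANNTG was found in the printed stretches of Myoz2 and Ldb3. That of Myoz2 is only 222 nt long, since its RefSeq entry began 28 nt downstream of the listed start. The whole Myoz2 entry, which runs past the listed start, held CANNTG, also in the form CAGCTG, and a MEF2 site. These sites are included in the counts of the next paragraph. Among the printed stretches, a MEF2 site was matched in that of Xirp2, and a CArG box, the site of serum response factor, in those of Myom1 and Ldb3. The MCAT element CATTCC was matched in the Tnnc1 window on the opposite strand, so that it reads ggaatg in the printed sequence.

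Of the 43 genes, 32 had an entry in the promoter table and 28 had one within 100 nt of the listed start. Myl1, Myl2, Myl4 and Myh4 had entries only at other starts. For Myl1 the listed transcript began 9702 nt downstream of the RefSeq start, and for Myl4 it began 26618 nt downstream. For Myh4 and Myl2 the listed start lay 2785 and 7762 nt downstream of the nearest entry. Myl1 is known to make a longer and a shorter light chain from separate promoters. In the 28 windows of 300 bases (250 before and 50 after the start), searched on both strands, CANNTG was present in 25 (89.3%, against 72.3% of 32851 promoters of the same length), and its subset CAGCTG in 10 (35.7%, against 16.3%). The MEF2 site was matched in 6 windows (21.4%, against 3.19% of all promoters) and the CArG box in 4 (14.3%, against 1.63%). CATTCC was found in 8 (28.6%, against 14.7%), TATAAA on the strand of the gene in 6 (21.4%, against 8.32%) and GGGCGG in 8 (28.6%, against 35.7%). The shares of 4 muscle-related motifs were thus above those of all promoters and the share of the GC box GGGCGG was below, as a description of 28 windows without a test.

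Relative to the other genes, sarcomere transcription was higher in the libraries labelled Kmt5b sKO. Of gene body values, those of 6 of the 40 tested genes rose and 0 fell at an adjusted p under 0.1 (limma with Benjamini-Hochberg adjustment), where 1.61% of all tested genes rose and 1.38% fell. The 6 genes were Myl1, Tnnc1, Myom1, Tcap, Myot and Xirp1. TSS values of 8 of 40 rose and 0 fell, where 0.932% of all genes rose and 0.731% fell, and these were Myl1, Tnnc1, Tnnc2, Tcap, Myoz2, Ldb3, Xirp1 and Xirp2. Myl1, a fast myosin light chain, Tnnc1, the slow troponin C, and the Z disc genes Tcap and Xirp1 passed in both regions, which made 10 genes in either. Myot reached the filter on low values in the TSS region only through the Kmt5b sKO libraries (mean 0.19 RPM for Ctrl against 2.61 RPM for Kmt5b sKO), and without it 5 of 39 genes rose in the gene body and 8 of 39 in the TSS region.

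The smaller changes lay on the same side. At an unadjusted p under 0.05, 24 of 40 genes were higher in the gene body (9.45% of all genes) and 27 in the TSS region (7.35%), with 0 lower in either (6.46% and 3.65% of all genes). All 3 Kmt5b sKO libraries lay above all 3 Ctrl libraries in 21 of 40 genes in the gene body (12% of all genes) and in 17 in the TSS region (10.2%), and below them in 0 (9.34% and 5.33% of all genes). The log2 fold change was above 0 in 40 of 40 genes in the gene body (53.8% of all genes) and in 39 of 40 in the TSS region (58.2%). Its median over the 40 genes was 0.79 in the gene body and 0.85 in the TSS region, against 0.02 and 0.08 over all genes. Without Myot, it was above 0 in 39 of 39 genes in the gene body and in 38 of 39 in the TSS region, with medians of 0.79 and 0.82. Myot is also among the 24, 27 and 21 genes counted above, but not among the 17.

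The calls depended on single libraries and, in the TSS region, on the fit. All 8 TSS calls were lost, with 0 of all genes called, when genes with low values were kept in the test. They were also lost, again with 0 of all genes called, when the variance was fitted without a trend. These fits called 5 and 6 sarcomere genes higher in the gene body (1.38% and 1.91% of all genes). In the gene body, 0 of the 40 genes, and 0 of all tested genes, passed without Ctrl 1 or without any 1 of the Kmt5b sKO libraries, 8 passed without Ctrl 3 (2.65% of all genes rose in this fit) and 11 without Ctrl 2 (1.57%). For TSS values, 0 passed without Ctrl 1 (0.00803% of all genes rose), 1 without Kmt5b sKO 1 (Tnnc2; 0.112%) and 1 without Kmt5b sKO 3 (Xirp1; 0.137%). Without Kmt5b sKO 2 or Ctrl 3, 8 passed (0.634% and 1.04% of all genes), and without Ctrl 2, 22 passed (2.22%). The median log2 fold change of the 40 genes lay between 0.57 and 1.01 in the gene body and between 0.63 and 1.08 in the TSS region over these 6 fits.

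**Figure D1:**
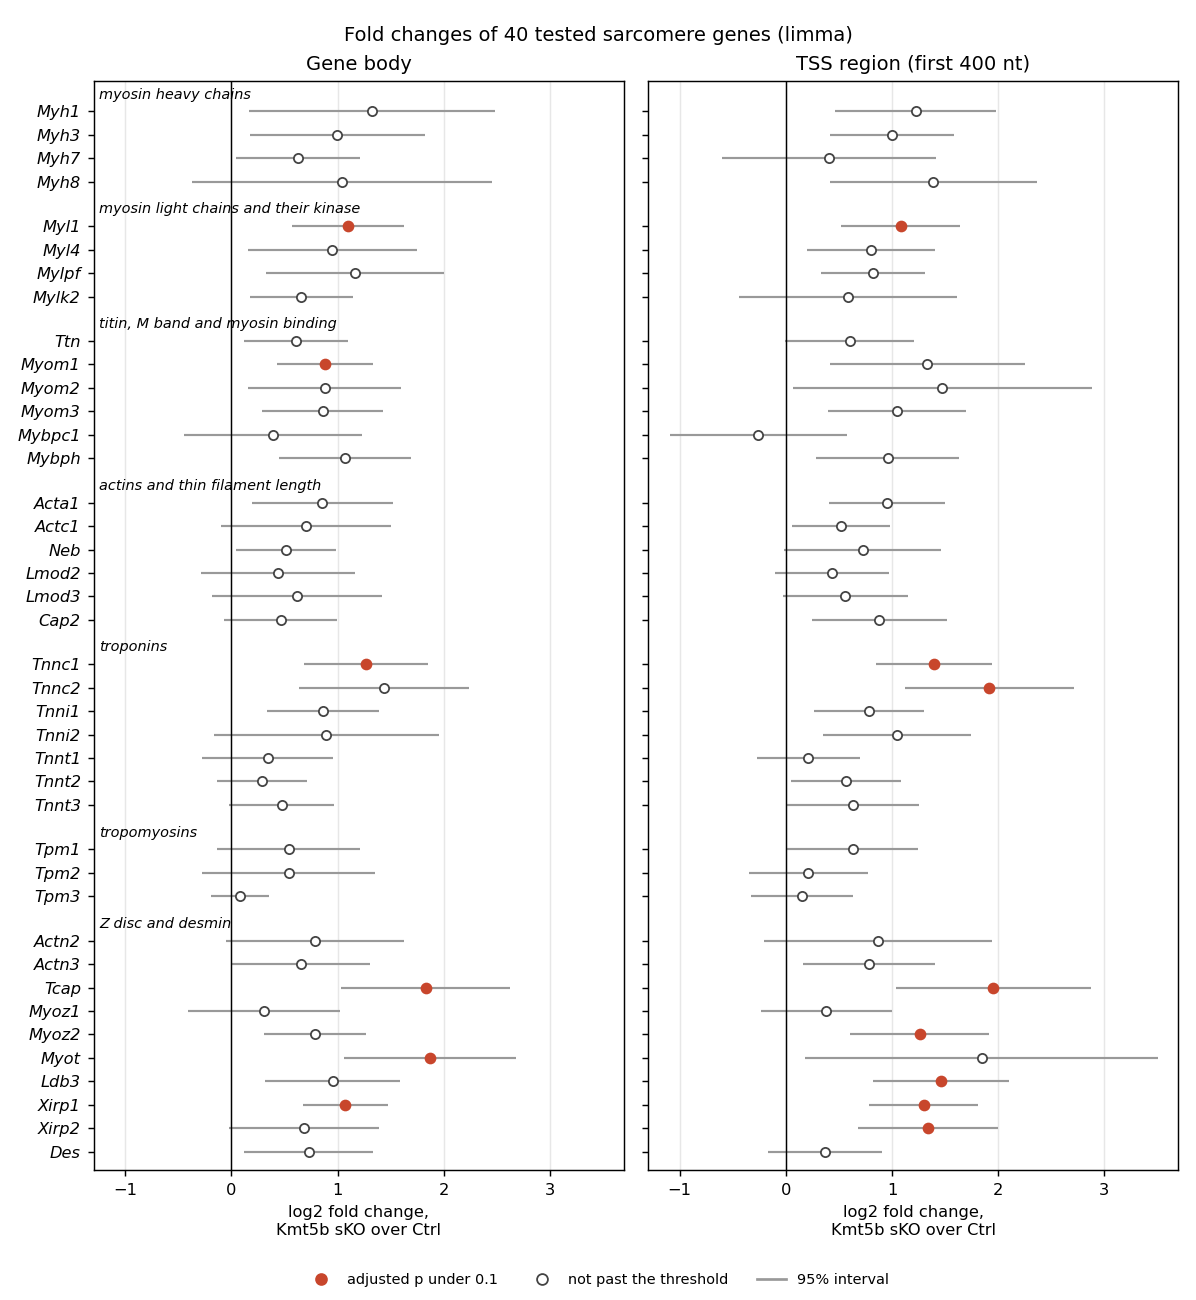
Log2 fold changes of the 40 tested sarcomere genes, Kmt5b sKO over Ctrl, in the gene body (left) and the TSS region (right), on the log2(value + 0.5) scale, with 95% intervals as lines. Filled points are the 6 genes in the gene body and 8 in the TSS region with an adjusted p under 0.1, and all points but that of Mybpc1 in the TSS region lie to the right of 0.

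The thick filament is made of myosin heavy chains, of which Myh3 is the embryonic, Myh8 the perinatal, Myh2, Myh1 and Myh4 the adult fast (IIA, IIX and IIB) and Myh7 the slow form. Myh3 had the highest level of the 6 in every library, with 442, 615 and 238 TPM across Ctrl libraries against 739.95, 692 and 1007 TPM with Kmt5b sKO, and the groups did not overlap. Its log2 fold change was 0.997 in the gene body with an adjusted p of 0.232, so it did not pass the threshold.
Myh1 came next, at 97.2, 187 and 52.4 TPM across Ctrl libraries against 232, 160.5 and 407 TPM with Kmt5b sKO. The range of the fast IIX gene was wide in both groups and Ctrl 2 lay above Kmt5b sKO 2 (log2 fold change 1.32, adjusted p = 0.253). Myh8, whose protein replaces the embryonic chain around birth, ranked behind Myh1, at 47.1, 76.5 and 12 TPM across Ctrl libraries against 74.3, 57.2 and 92.4 TPM with Kmt5b sKO, with Ctrl 3 far below the other 5 libraries.
The 3 remaining heavy chains were at a few TPM. Myh7, the slow gene, had 5.31, 5.63 and 2.88 TPM across Ctrl libraries against 6.88, 6.74 and 7.75 TPM with Kmt5b sKO, without overlap (log2 fold change 0.62, adjusted p = 0.288). Myh2 had 5.11, 8.82 and 2.79 TPM across Ctrl libraries against 6.69, 6.03 and 12.4 TPM with Kmt5b sKO, and the groups overlapped. Myh4 was the lowest, at 2.5, 3.94 and 0.9 TPM across Ctrl libraries against 5.1, 3.85 and 6.91 TPM with Kmt5b sKO, and Ctrl 2 was above Kmt5b sKO 2. In their TSS regions, Myh2 and Myh4 had at most 1 and 4 reads in a library. The listed start of Myh4 lay 2785 nt downstream of its RefSeq start, and 282 nt of its TSS region were coding. Its 4 reads thus say nothing about the signal at the RefSeq start.

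The order of the heavy chains was similar in both genotypes. Myh3 held 65.7% to 77.1% of the summed heavy chain TPM of a library, Myh1 16.2% to 26.5% and Myh8 3.87% to 8.53%. Each of the other 3 chains held less than 1% in all 6 libraries, the shares of Myh2 (0.628% to 0.983%) and Myh7 (0.506% to 0.932%) overlapped, and that of Myh4 (0.291% to 0.479%) was below both. The summed heavy chain level was 602 ± 294 TPM for Ctrl against 1175 ± 318 TPM for Kmt5b sKO (SD, n = 3 each), and the groups did not overlap.
Myh3, Myh2, Myh1, Myh4 and Myh8 lie next to each other on chromosome 11, and reads that matched several places were kept at 1 random place. Of all 50-nt windows of a gene body, 6.14% were also present in another sarcomere gene for Myh2, 5.79% for Myh1, 4.77% for Myh4, 4.61% for Myh8 and 1.32% for Myh3. The low levels of Myh2 and Myh4, beside much higher neighbours, are uncertain for this reason. Each listed transcript of the 5 had 38 to 40 exons in the GENCODE vM21 annotation, and 19.3% to 28.9% of its gene body was exonic.

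**Figure D2:**
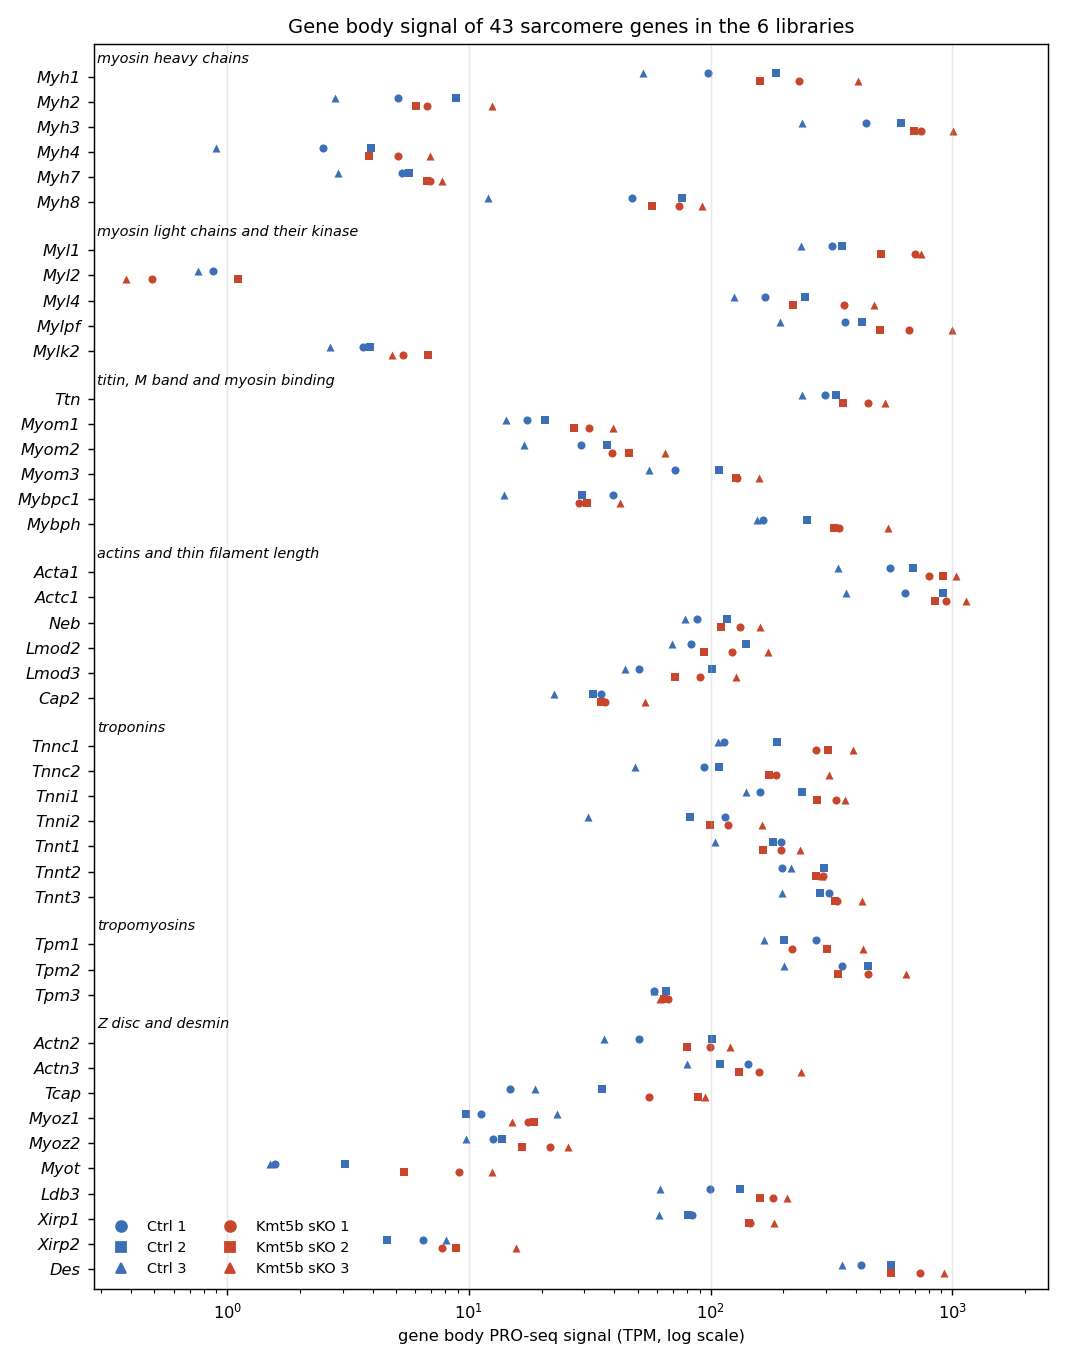
Gene body level in TPM, on a log scale, of the 43 sarcomere genes in each of the 6 libraries, grouped by the role of the protein. Blue symbols are Ctrl and red symbols Kmt5b sKO, the 0 of Myl2 in Ctrl 2 is not drawn, and Ctrl 3 is the leftmost symbol for most genes.

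Light chains wrap around the neck of the myosin head. Myl1, the fast essential light chain, had 319, 351 and 237 TPM across Ctrl libraries against 699, 508 and 739 TPM with Kmt5b sKO. Every Kmt5b sKO library was above every Ctrl library, and Myl1 rose 2.14-fold in the group means (log2 fold change 1.10, SE 0.23, adjusted p = 0.0798). Its TSS region had 200.2, 373 and 332 RPM across Ctrl libraries against 698, 454 and 746 RPM with Kmt5b sKO (log2 fold change 1.08, SE 0.27, adjusted p = 0.0708). As the listed start of Myl1 lies 9702 nt downstream of its RefSeq start, reads of the longer transcript could fall in this region too.
Mylpf, the fast regulatory light chain and the highest of the group, had 359, 423 and 193 TPM across Ctrl libraries against 663, 503 and 999.8 TPM with Kmt5b sKO. The groups did not overlap, and the change did not pass (log2 fold change 1.17, SE 0.36, adjusted p = 0.176). Myl4, the light chain of embryonic muscle and the atrium, had a log2 fold change of 0.95 (adjusted p = 0.236), and Mylk2, the kinase of the regulatory chain, one of 0.66 (adjusted p = 0.184). Myl2, the slow and ventricular regulatory chain, was close to absent, at 0.87, 0 and 0.76 TPM across Ctrl libraries against 0.49, 1.11 and 0.38 TPM with Kmt5b sKO, and had 0 reads in the TSS region of every library.

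Titin, a giant elastic protein, had 297, 329.7 and 239 TPM across Ctrl libraries against 446, 352 and 529 TPM with Kmt5b sKO. The groups were separated by a small gap (log2 fold change 0.61, adjusted p = 0.219). The M band proteins myomesin tie thick filaments together. Myom1 was the lowest gene of this group, at 17.4, 20.7 and 14.2 TPM across Ctrl libraries against 31.3, 27.2 and 39.3 TPM with Kmt5b sKO, and it rose 1.87-fold (log2 fold change 0.89, SE 0.19, adjusted p = 0.0901). The TSS region of Myom1 had 8.71, 13.2 and 3.79 RPM across Ctrl libraries against 14.1, 15.2 and 37.3 RPM with Kmt5b sKO, and its log2 fold change was larger but less certain, at 1.33 (adjusted p = 0.185).
Myom2 and Myom3 had gene body log2 fold changes of 0.88 and 0.86, near that of Myom1, and in both genes all Kmt5b sKO libraries were above Ctrl (adjusted p = 0.228 and 0.147). Mybph, a binding protein of the thick filament, had a log2 fold change of 1.07 (adjusted p = 0.118) and did not overlap either. The slow myosin binding protein Mybpc1 stood apart. It had 39.4, 29.5 and 14 TPM across Ctrl libraries against 28.6, 30.9 and 42.2 TPM with Kmt5b sKO in the gene body, with overlapping groups, and its TSS log2 fold change of −0.26 (95% interval −1.09 to 0.58) was the only one of the 40 below 0.

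Skeletal actin (Acta1) and cardiac actin (Actc1), both used in developing skeletal muscle, had the highest mean gene body TPM of the 43 genes, while Ttn had the highest mean RPM in the TSS region. Actc1 had 635, 917 and 363 TPM across Ctrl libraries against 942, 845 and 1139.7 TPM with Kmt5b sKO in the gene body. Ctrl 2 lay within the range of the Kmt5b sKO libraries (log2 fold change 0.70, adjusted p = 0.387). Acta1, at 526 ± 175 TPM for Ctrl against 917 ± 117 TPM for Kmt5b sKO (SD, n = 3 each), did not overlap between groups (log2 fold change 0.86, adjusted p = 0.21).
Nebulin (Neb), which runs along the thin filament, and the leiomodins Lmod2 and Lmod3, which nucleate actin at its pointed end, had gene body log2 fold changes of 0.51, 0.44 and 0.62 with adjusted p-values of 0.284, 0.571 and 0.453. Cap2, a cyclase-associated protein that takes part in actin turnover, was the lowest of this group, at 35.1, 32.5 and 22.5 TPM across Ctrl libraries against 36.5, 35.2 and 53.5 TPM with Kmt5b sKO. Its groups were separated by a narrow gap, and the change did not pass (log2 fold change 0.46, adjusted p = 0.387).

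Troponin C is the calcium sensor of the thin filament, troponin I holds back contraction and troponin T ties the complex to tropomyosin. Tnnc1, the slow and cardiac troponin C, whose promoter is printed above, had 114, 188 and 108 TPM across Ctrl libraries against 273, 306 and 389 TPM with Kmt5b sKO. All 3 Kmt5b sKO libraries were above Ctrl, and Tnnc1 rose 2.36-fold (log2 fold change 1.27, SE 0.25, adjusted p = 0.0751). Its TSS values were 25.2, 54 and 34.1 RPM across Ctrl libraries against 102, 81.9 and 105 RPM with Kmt5b sKO, and they rose 2.55-fold (log2 fold change 1.40, SE 0.26, adjusted p = 0.0289).
Tnnc2, the fast troponin C, had 25.9, 51.1 and 14.4 RPM across Ctrl libraries against 88.2, 64.7 and 189.5 RPM with Kmt5b sKO in the TSS region. The groups did not overlap there, and Tnnc2 rose 3.74-fold (log2 fold change 1.92, SE 0.38, adjusted p = 0.0385). In its gene body, with 94.1, 109 and 48.5 TPM across Ctrl libraries against 186, 174 and 308 TPM with Kmt5b sKO, the groups were also apart, and the adjusted p of 0.107 lay just outside the threshold (log2 fold change 1.44). Ube2c, a gene of dividing cells, overlaps Tnnc2 on the other strand, and reads were assigned by strand.

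The other troponins differed in size of change, not in sign. Tnni1, the slow troponin I, had a gene body log2 fold change of 0.86 (adjusted p = 0.129) without overlap. Tnni2, the fast troponin I and the lowest troponin, had 115, 82 and 31.2 TPM across Ctrl libraries against 118, 99.7 and 163 TPM with Kmt5b sKO. Ctrl 3 was far below the other libraries and Ctrl 1 within the Kmt5b sKO range (log2 fold change 0.89, adjusted p = 0.404).
The 3 troponin T genes had the smallest gene body fold changes of the troponins. Tnnt3, the fast form and the highest troponin, had 308, 283 and 197 TPM across Ctrl libraries against 333, 328 and 422 TPM with Kmt5b sKO, with groups that did not overlap but lay close (log2 fold change 0.47, adjusted p = 0.343). Tnnt1, the slow form, and Tnnt2, the cardiac and embryonic form, had log2 fold changes of 0.34 and 0.29, with 95% intervals of −0.28 to 0.96 and −0.13 to 0.71, and their groups overlapped.

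Tropomyosin is the rod along the thin filament that covers the myosin binding sites. Tpm2, the beta form and the highest of the 3, had 351, 447 and 200.4 TPM across Ctrl libraries against 448, 336 and 642 TPM with Kmt5b sKO, and the groups overlapped (log2 fold change 0.54, adjusted p = 0.532). Tpm3, a gene of slow fibres with transcripts in many other cell types, was the lowest. It had 58.1, 65.3 and 58.3 TPM across Ctrl libraries against 66.9, 63.9 and 61.5 TPM with Kmt5b sKO. The listed transcript of Tpm3 had 8 exons and 132 coding nt in the TSS region, against 9 and 114 for Tpm1 and for Tpm2. Its values may therefore not be those of the slow muscle form. All 6 values of Tpm3 lay close to each other, and its log2 fold change of 0.08 (95% interval −0.19 to 0.36) was the smallest of the 40 genes. Tpm1, the alpha form, had a log2 fold change of 0.54 (adjusted p = 0.435). TSS log2 fold changes were 0.63 for Tpm1, 0.21 for Tpm2 and 0.15 for Tpm3, of which that of Tpm2 fell below 0 without Ctrl 3 (−0.01) or Kmt5b sKO 3 (−0.11) and that of Tpm3 without Kmt5b sKO 1 (−0.0051).

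Of the 10 Z disc genes (desmin included), 3 rose in the gene body (1.61% of all genes) and 5 in the TSS region (0.932%). The 3 were Tcap, Xirp1 and Myot, of which Myot reached the filter on low values only through Kmt5b sKO. Tcap, or telethonin, caps the end of titin in the Z disc. It had 14.7, 35.5 and 18.9 TPM across Ctrl libraries against 55.8, 88.5 and 94.7 TPM with Kmt5b sKO and rose 3.46-fold (log2 fold change 1.83, SE 0.34, adjusted p = 0.0722), with no overlap. Near the start it had 5.81, 31 and 10.6 RPM across Ctrl libraries against 47.2, 32.4 and 81.4 RPM with Kmt5b sKO, where Ctrl 2 and Kmt5b sKO 2 lay next to each other, and it rose 3.39-fold (log2 fold change 1.95, SE 0.44, adjusted p = 0.0512). The gene body of Tcap is 742 nt and holds as few as 16 reads in a library.

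Myot (myotilin), which cross-links actin in the Z disc, was the lowest Z disc gene, at 1.58, 3.06 and 1.51 TPM across Ctrl libraries against 9.06, 5.39 and 12.4 TPM with Kmt5b sKO. Its groups were well apart, and it rose 4.37-fold in the gene body (log2 fold change 1.87, SE 0.35, adjusted p = 0.0716). TSS values of Myot were 0, 0.57 and 0 RPM across Ctrl libraries against 0.33, 1.98 and 5.52 RPM with Kmt5b sKO, where the Ctrl libraries held at most 1 read, and it did not pass (adjusted p = 0.378). Having entered the test only through its level in Kmt5b sKO, Myot had to differ in the TSS region to be tested, and it was also called higher in the gene body when no filter was set. Xirp1, a Xin repeat protein that binds actin, had 83.4, 80.3 and 61.3 TPM across Ctrl libraries against 146, 145 and 183 TPM with Kmt5b sKO and rose 2.11-fold (log2 fold change 1.07, SE 0.17, adjusted p = 0.0643). Its TSS values of 21.1, 35 and 29.7 RPM across Ctrl libraries against 66.5, 68 and 74.5 RPM with Kmt5b sKO were far apart between groups, and they rose 2.44-fold (log2 fold change 1.30, SE 0.24, adjusted p = 0.0295). The annotation places Cx3cr1 over Xirp1 on the same strand, and the listed transcript of Cx3cr1 had 0.57 to 2.7 TPM.

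Xirp2, a relative of Xirp1, rose in the TSS region, with 9.93, 8.04 and 8.52 RPM across Ctrl libraries against 19.3, 23.1 and 27.1 RPM with Kmt5b sKO (log2 fold change 1.34, SE 0.32, adjusted p = 0.061). Gene body values of Xirp2 were 6.46, 4.58 and 8.05 TPM across Ctrl libraries against 7.77, 8.83 and 15.7 TPM with Kmt5b sKO, and Ctrl 3 was above Kmt5b sKO 1 (log2 fold change 0.68, adjusted p = 0.334). Ldb3, a PDZ and LIM domain protein of the Z disc, had 80.4, 148 and 52.7 RPM across Ctrl libraries against 218, 177 and 342 RPM with Kmt5b sKO in the TSS region and rose 2.63-fold (log2 fold change 1.46, SE 0.31, adjusted p = 0.043). Its gene body, at 99.7, 133 and 62 TPM across Ctrl libraries against 181, 160.2 and 208 TPM with Kmt5b sKO, was also free of overlap but did not pass (adjusted p = 0.148).
Myoz2, a calcineurin-binding Z disc protein of slow fibres, had 12.3, 28.1 and 15.9 RPM across Ctrl libraries against 36.7, 36.3 and 60.2 RPM with Kmt5b sKO in the TSS region and rose 2.36-fold (log2 fold change 1.26, SE 0.31, adjusted p = 0.0713). Gene body values were 12.6, 13.8 and 9.71 TPM across Ctrl libraries against 21.6, 16.6 and 25.6 TPM with Kmt5b sKO (log2 fold change 0.79, adjusted p = 0.128). Myoz1, its fast counterpart, had 14.7 ± 7.38 TPM for Ctrl against 17.1 ± 1.85 TPM for Kmt5b sKO (SD, n = 3 each), with Ctrl 3 above all other libraries, and a log2 fold change of 0.31 (95% interval −0.41 to 1.03).
Desmin (Des), the intermediate filament around the Z disc that MuSCs already make, was the highest gene of this group, at 420.5, 558 and 351 TPM across Ctrl libraries against 734, 556 and 921 TPM with Kmt5b sKO. Ctrl 2 and Kmt5b sKO 2 were at nearly the same level (log2 fold change 0.73, adjusted p = 0.234). The alpha-actinins Actn2 and Actn3, which cross-link thin filaments in the Z disc, had log2 fold changes of 0.79 and 0.66 with overlapping groups (adjusted p = 0.346 and 0.312).

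Developmental, fast and slow isoform genes were then compared as classes. The 5 developmental genes (Myh3, Myh8, Myl4, Tnnt2 and Actc1) had a summed gene body level of 1489, 2148 and 954 TPM across Ctrl libraries against 2405, 2085 and 3003 TPM with Kmt5b sKO. These groups overlapped through Ctrl 2 and Kmt5b sKO 2, with a 1.63-fold difference of the means. The 12 fast genes summed to 1487, 1609 and 886 TPM for Ctrl against 2464, 1986 and 3378 TPM for Kmt5b sKO, and the 8 slow genes to 587, 722 and 438 TPM against 922, 865 and 1120.2 TPM. Fast and slow sums did not overlap between groups, with differences of 1.97-fold and 1.66-fold. The slow class, here and below, includes Tpm3, whose listed transcript may not be the slow muscle form. Over all 43 genes the sum was 6223, 7826 and 4199 TPM for Ctrl against 9815, 8679.7 and 12942 TPM for Kmt5b sKO.

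The makeup of the sum was similar. Developmental genes held 24.7% ± 2.46 of it for Ctrl against 23.9% ± 0.655 for Kmt5b sKO, fast genes 21.9% ± 1.79 and 24.7% ± 1.65, and slow genes 9.69% ± 0.641 and 9.34% ± 0.657 (SD, n = 3 each). By gene, 1 of 10 tested fast genes, 1 of 7 slow genes and 0 of 5 developmental genes rose in the gene body (1.61% of all genes). In the TSS region 2 of 10, 2 of 7 and 0 of 5 rose (0.932% of all genes). At an unadjusted p under 0.05, 2 of the 5 developmental genes were higher in the gene body (9.45% of all genes). All 5 were higher in the TSS region (7.35%). Median gene body log2 fold changes were 0.89 for fast, 0.62 for slow and 0.95 for developmental genes, and differences between the classes were not tested.

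Pairs of genes for the same part gave the same picture. Of 13 pairs, 10 could be formed, and in each of them the log2 ratio in the Ctrl libraries overlapped with that in Kmt5b sKO. The ratio of fast Myh1 to slow Myh7 had the largest difference, with 4.48 ± 0.50 for Ctrl against 5.12 ± 0.57 for Kmt5b sKO on the log2 scale (SD, n = 3 each). The ratio of fast Tnnc2 to slow Tnnc1 was −0.74 ± 0.44 for Ctrl against −0.57 ± 0.24 for Kmt5b sKO, that of Tnni2 to Tnni1 was −1.40 ± 0.86 for Ctrl against −1.36 ± 0.19 for Kmt5b sKO, and that of Tnnt3 to Tnnt1 was 0.74 ± 0.16 for Ctrl against 0.87 ± 0.11 for Kmt5b sKO. Slow troponin C and I genes were thus above the fast ones in every library, and fast troponin T was above slow.
Among developmental and adult partners, the ratio of Myh3 to Myh1 was 2.03 ± 0.27 for Ctrl against 1.70 ± 0.40 for Kmt5b sKO, and that of Myh8 to Myh1 was −1.49 ± 0.57 for Ctrl against −1.76 ± 0.34 for Kmt5b sKO. The ratio of Myl4 to Myl1 was −0.79 ± 0.24 for Ctrl against −0.94 ± 0.29 for Kmt5b sKO, that of Tnnt2 to Tnnt3 was −0.15 ± 0.43 for Ctrl against −0.34 ± 0.19 for Kmt5b sKO, and that of Actc1 to Acta1 was 0.24 ± 0.16 for Ctrl against 0.09 ± 0.18 for Kmt5b sKO. In all 5 the mean was lower in Kmt5b sKO, and each difference was below the pooled SD of its groups. The ratio of Myoz1 to Myoz2 was 0.19 ± 0.93 for Ctrl against −0.30 ± 0.47 for Kmt5b sKO.

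**Figure D3:**
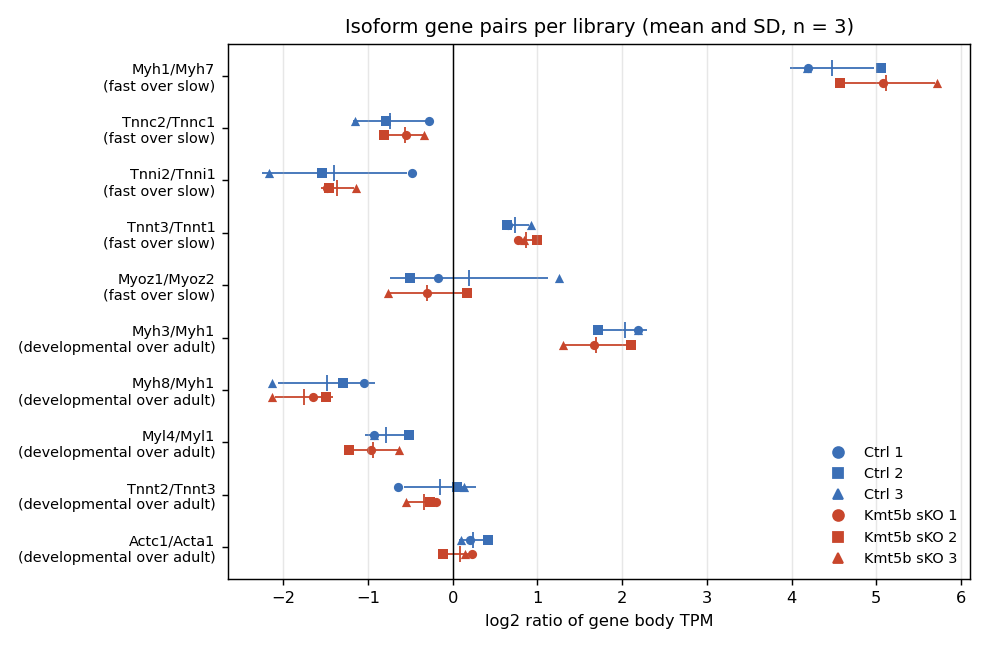
Log2 ratio of the gene body TPM of 10 pairs of isoform genes in each library, with the mean as a tick and the SD as a line (n = 3 per group). Blue (Ctrl) and red (Kmt5b sKO) symbols overlap in each pair.

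The TSS log2 fold change was larger than that of the gene body in 23 of the 40 genes. The pausing index, the TSS value divided by the gene body value, describes how much polymerase stays near the start. It passed the test in 0 of 38 sarcomere genes and 0 of all 11698 genes (0.0%, limma), with 1 sarcomere gene at an unadjusted p under 0.05 (2.34% of all genes higher and 1.52% lower), and its median log2 fold change was 0.08 over the 38 genes and 0.05 over all.
Sarcomere genes had low pausing indices in both genotypes. The mean index was below the median of all genes, 1.59, in 35 of 38 genes, with a median of 0.65. Actc1 had the lowest, 0.257 ± 0.0669 for Ctrl against 0.225 ± 0.0415 for Kmt5b sKO, and Ttn the highest, 4.12 ± 0.454 and 4.08 ± 0.234 (SD, n = 3 each). Since RPM and TPM have separate totals, the index ranks genes but its value has no absolute meaning.

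**Figure D4:**
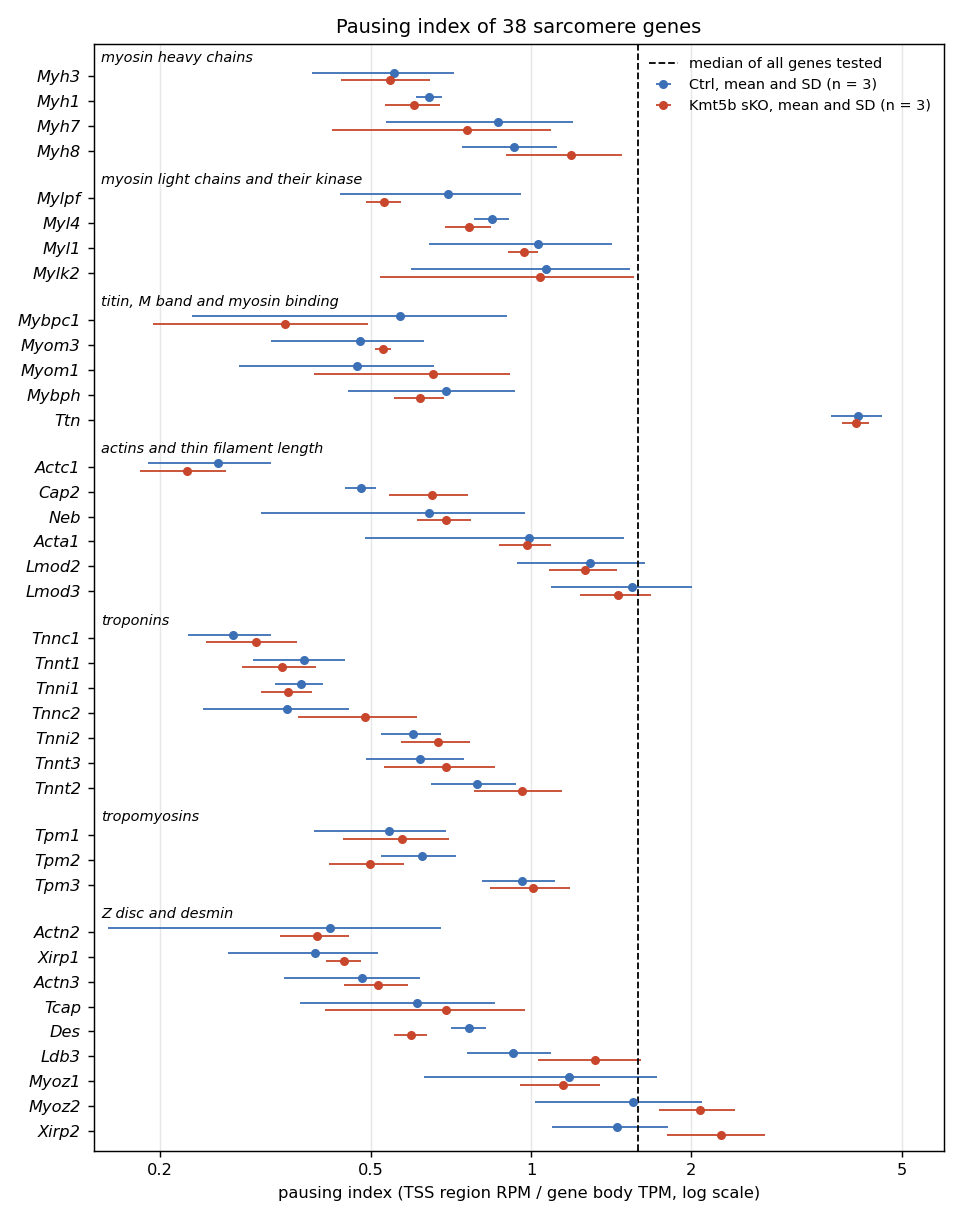
Pausing index (TSS region RPM over gene body TPM, log scale) of 38 sarcomere genes, as mean and SD of 3 libraries per group, with the median of all tested genes as a dashed line at 1.59. Blue (Ctrl) and red (Kmt5b sKO) intervals of most genes overlap, and most genes lie left of the line.

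Most pairs of sarcomere genes had correlated levels. Over the 6 libraries, the median Pearson's r between the log2 levels of 2 tested genes was 0.86 in 780 pairs. These pairs share depth, scaling and the difference between the groups, and r was not computed within groups or for other genes. Myoz1 stood apart, with a mean r of −0.19 with the other genes, followed by Xirp2 (0.45) and Tpm3 (0.52). Ctrl 3 was the lowest of the 6 libraries in 35 of 40 genes in the gene body (33.3% of all genes) and Kmt5b sKO 3 the highest in 36 of 40 (19.5%). The mean log2 gene body level of the 40 genes was 6.28, 6.58 and 5.78 for Ctrl against 6.94, 6.80 and 7.33 for Kmt5b sKO, without overlap.

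Markers of cell state were set beside these levels. Markers of mature fibres lay higher in Kmt5b sKO in 11 of 11 tested genes in the gene body (53.8% of all genes). Of these, Eno3, the muscle enolase, and Car3, a carbonic anhydrase of slow fibres, rose in the gene body (1.61% of all genes). In the TSS region 4 rose (0.932% of all genes). Car3 and Ckmt2 reached the filter on low values only through Kmt5b sKO, and without them 1 of 9 rose in the gene body (Eno3) and 3 of 9 in the TSS region. The summed level of the list was 391 to 584 TPM in Ctrl and 686 to 1159 TPM in Kmt5b sKO. Genes of differentiating myocytes summed to 1414 to 1967 TPM and 1847 to 2401 TPM, and 0 of 8 rose in the gene body and 1, Mef2c, in the TSS region. MuSC and myoblast genes summed to 1302 to 2100 TPM and 1591 to 1992 TPM, and 0 of 9 were called in either region. Myod1 alone had a mean of 1091 TPM for Ctrl and 1179 TPM for Kmt5b sKO within these sums. The gene body log2 fold change was above 0 in 3 of the 9 genes, with a median of −0.19.
Genes of dividing cells moved the other way, with 6 of 11 lower in the gene body (Pcna, Cdk1, Top2a, Ccna2, Mcm5 and Bub1; 1.38% of all genes fell) and 0 higher, and with a summed level of 449 to 629 TPM in Ctrl and 257 to 322 TPM in Kmt5b sKO. In whole cultures, more cells that transcribe sarcomere genes and more transcription per cell cannot be told apart, and the part that fibre-like or less dividing cells had in the differences was not tested.

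**Figure D5:**
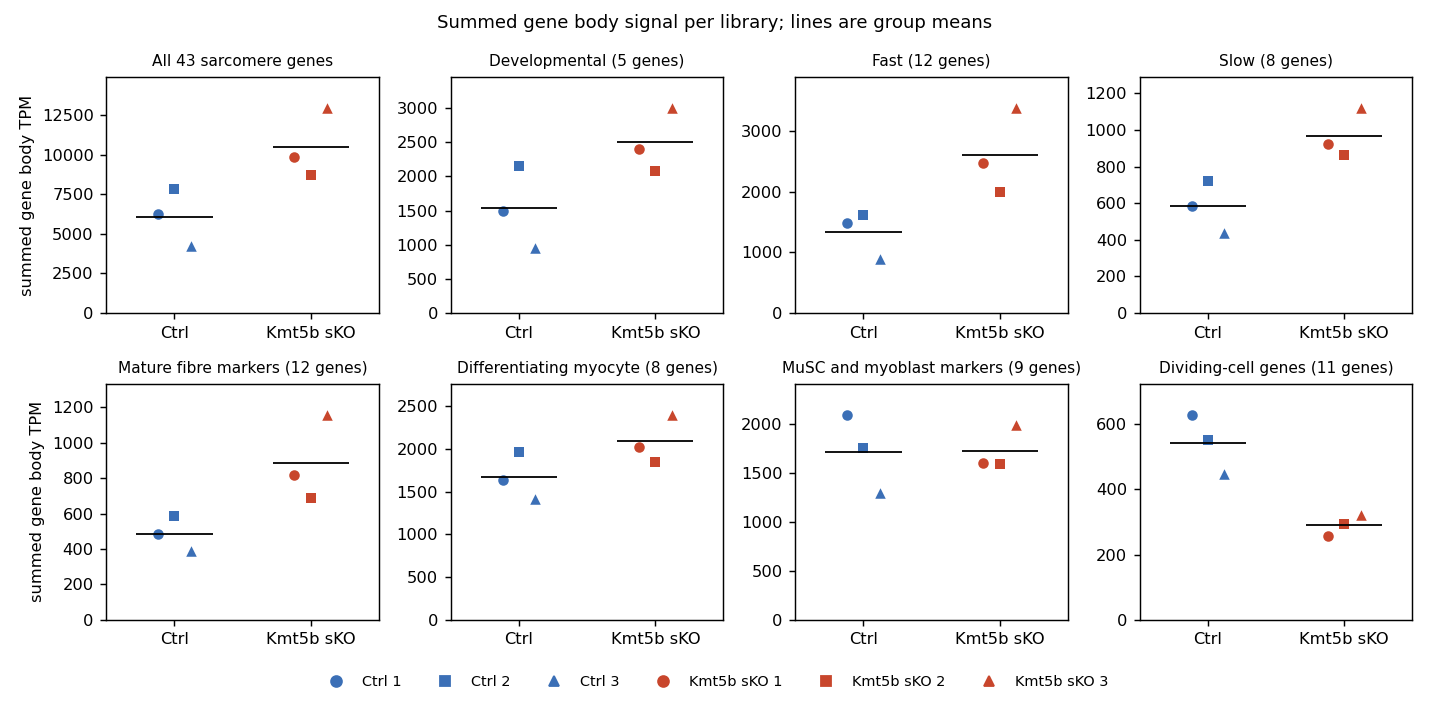
Summed gene body TPM per library of all 43 sarcomere genes, their developmental, fast and slow classes, and 4 lists of marker genes, with a line at each group mean (n = 3). Sarcomere and mature fibre sums are higher in each Kmt5b sKO library than in each Ctrl library, dividing-cell sums are lower, and those of developmental, differentiating myocyte and MuSC genes overlap.

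Other genes of the sarcomere and its assembly, from a list of 46, were compared with the same tests. Of 39 tested, 3 rose in the gene body and 0 fell (1.61% and 1.38% of all genes), 36 had a log2 fold change above 0 (53.8% of all genes), and the median was 0.64. Myl6b, a light chain of slow muscle, rose by 1.31 (SE 0.23, adjusted p = 0.0691) on the log2 scale, Obsl1, which links to titin and myomesin, by 0.96 (SE 0.20, adjusted p = 0.0822), and Palld, an actin-bundling protein, by 0.66 (SE 0.14, adjusted p = 0.0851).
Near the start, 8 of 39 rose and 0 fell (0.932% and 0.731% of all genes). They included Trim63 and Trim54, ubiquitin ligases of the sarcomere, with log2 fold changes of 1.71 and 1.63, the myosin chaperone Unc45b with 1.29, Smyd1, a methyltransferase needed for myofibril assembly, with 1.08, and Klhl40, a stabiliser of thin filament proteins, with 1.10. Ankrd23, Mypn and Pdlim3, which bind titin or actinin at the Z disc or the I band, had 1.76, 1.25 and 1.01.
The counterparts that non-muscle cells use for the same tasks, such as Actb, Myh9, Tpm4, Actn1 and Myl6, were tested as well. Of 18 such genes 0 were called in either region. At an unadjusted p under 0.05 (limma), 2 were higher in the gene body (9.45% of all genes) and 4 in the TSS region (7.35%), with 0 lower. The gene body log2 fold change was above 0 in 14 of 18 (53.8% of all genes), with a median of 0.13. That of Myl6 was the largest, at 0.86. The difference between these genes and those of the sarcomere was not tested.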

How the data were processed

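PRO-seq libraries of 3 Ctrl and 3 Kmt5b sKO MuSC samples were analysed. The authors used Trimmomatic 0.39 for trimming and STAR 2.6.1d for alignment to GRCm38, keeping 1 random position for reads that matched several, removed duplicates with Picard 2.18.16, and listed 1 isoform per gene, that with the highest TSS value. The TSS values that the authors deposited are RPM (their methods call them TPM), in steps of whole reads in 100% of low values (within 0.1 read). The gene body values that the authors deposited are TPM. Removal of duplicates caps the signal of strongly transcribed genes, and scaling to a fixed total hides global shifts.

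Genes on autosomes and the mitochondrial genome whose TSS and gene body means reached 0.5 were tested as log2(value + 0.5) with limma 3.58.1 (trend, genotype only, R 4.3.3) with calls at p under 0.1 after adjustment by Benjamini-Hochberg. The fold change scale understates changes of low genes. Pausing was tested for genes above 0 in all libraries. The methods planned for TPM were kept for RPM, since all TSS regions have 1 length. Alternatives were other pseudocounts, filters and scalings, edgeR 4.0.16 and DESeq2 1.42.0 on recovered reads, a replicate block and leaving out each library. The fits were tested on simulated data. Sarcomere genes and other lists were chosen with earlier results of these data known. Values in every library are given for genes called, for all heavy chains, and for the highest and lowest gene of each role. Acta1 and Myoz1 were added as pair partners, and the marker genes named were chosen after their values were seen.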

Additional observations from a re-analysis of the deposited data

How the results depend on the processing

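The counts of calls moved with single libraries, while the median of the sarcomere genes stayed above 0 in both regions under each alternative but reads per uniquely mapped read. Leaving out 1 library, the number of sarcomere genes called higher ranged from 0 to 11 in the gene body and from 0 to 22 in the TSS region, and the number of all genes called from 0 to 836 and from 1 to 408. The median pausing change of the sarcomere genes ranged from −0.037 to 0.17 in these fits, with a value below 0 without Ctrl 1 (−0.037) or Kmt5b sKO 3 (−0.031), and the TSS values of Tpm2 (−0.11 to 0.38) and Tpm3 (−0.0051 to 0.30) crossed 0. With median centring, 12 sarcomere genes were called higher in the gene body (2.21% of all genes). The number was 14 with edgeR (3.17%), 19 with DESeq2 (5.73%) and 0 at an adjusted p under 0.05. In the TSS region it was 0 without the filter on low values, 0 without the trend and 4 at an adjusted p under 0.05. All genes called numbered 748 with edgeR, 1296 with DESeq2 and 1 at an adjusted p under 0.05 in the gene body, 0, 0 and 64 in the TSS region without the filter, without the trend and at 0.05, and 1 for the pausing index with a pseudocount of 0.5. With reads per uniquely mapped read, 10794 genes were called in the gene body and 8858 in the TSS region. The medians of the sarcomere genes were −0.33 and −0.32 on this scale. In the gene body, 2 sarcomere genes were called higher (0.442% of all genes) and 10 lower. In the TSS region, 1 was called higher (0.386%) and 4 lower. Centred on the median of all genes, a setting chosen after seeing the data, the same reads gave 692 genes called in the gene body. Of the sarcomere genes, 12 were called higher in the gene body (3.51% of all genes) and 7 in the TSS region (1.04%). With the replicate number as a block, 0 genes were called in either region. Samples with the same number did not deviate together (r = −0.15, −0.17 and −0.33 in the gene body, and −0.03, −0.13 and −0.16 in the TSS region). Being deviations from means of only 3 libraries per group, these values cannot decide whether the samples were prepared in pairs. Low TSS counts limit 5 of the 40 genes, which had fewer than 10 TSS reads in at least 1 library.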

Other observations

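Markers of other cell types that muscle cultures can hold had summed levels that overlapped between the groups, except those of endothelial and Schwann cells, which were the lowest. Of fibro-adipogenic markers, Dcn and Lum were not analysed here, and the other 5 summed to 46.4 to 62.4 TPM in Ctrl and 43.9 to 49.5 TPM in Kmt5b sKO, with 0 of 4 tested genes called. Col3a1 made up most of this sum, with means of 48.1 TPM for Ctrl and 39.8 TPM for Kmt5b sKO. Endothelial markers summed to 2.5 to 4.23 TPM in Ctrl and 4.38 to 5.05 TPM in Kmt5b sKO, and Emcn, Kdr and Tie1 were not analysed here. Of immune markers, 2 of 6 had values, which summed to 214 to 402 TPM in Ctrl and 319.8 to 326 TPM in Kmt5b sKO, with 0 of 1 tested genes called. Nearly all of this was Cd68, with means of 314 TPM for Ctrl and 323 TPM for Kmt5b sKO. Smooth muscle and pericyte markers summed to 282 to 486 TPM in Ctrl and 378 to 429 TPM in Kmt5b sKO, with 0 of 4 called. Acta2 was the largest part, with means of 342 TPM for Ctrl and 285 TPM for Kmt5b sKO. Schwann cell markers summed to 8.75 to 11.7 TPM in Ctrl and 15.8 to 25.8 TPM in Kmt5b sKO, and Sox10, a neural crest transcription factor, rose by 1.56 (SE 0.31, adjusted p = 0.0754) on the log2 scale. The part of these cells in the sarcomere results was not tested.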
